A study of Mus musculus with 96 samples.

Results

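Of 61 single mouse embryonic stem cells with RNA counts, 7 carried a low summed count of chromosome 14 genes, and these cells are described here against the other 54. The 7 cells were selected on that sum and are named by their wells, E01, H10, B05, H03, F01, B09 and F07. All 61 cells belong to the E14 line, carry the strain label C57BL/6 and the genotype label wild-type, and came from medium with serum and the cytokine LIF (serum/LIF). The series lists 76 serum/LIF wells, 16 wells of 2i cells and 4 empty wells; 15 serum/LIF wells and the 2i and empty wells were not analysed here. Messenger RNA was parted from the DNA of the same cell by G&T-seq and sequenced from Nextera XT libraries. The labels name no treatment and no separate cultures, so each sample is 1 cell and the cells are not replicates of a condition. Because the cells were also picked by their chromosome 14 counts, every comparison is given as values and counts, with no test.

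Mouse chromosome 14 holds housekeeping genes of the proteasome, chromatin and mitochondria beside developmental regulators such as Klf5, Otx2 and Sall2. The RNA of many genes follows gene copy number, and a chromosome in a cell can also be read out at a lower level for other reasons. Embryonic stem cells in serum move between a naive state, marked by Zfp42, Klf2 and Dppa3, and states closer to differentiation, marked by genes such as Lefty1 and the mesendoderm factor T.

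The share of chromosome 14 in the counts of chromosomes 1 to 19 and X, the value that chose the cells, was 1.36% in E01, with an exact 95% binomial interval of 1.35% to 1.37%. It was 1.78% in H10, 2.09% in B05 and in H03, 2.15% in F01, and 2.52% in B09 and in F07. The other 54 cells ran from 2.81% to 3.81%, with a median of 3.18%. The last cell inside the selection, F07, stood at 0.794 of that median and the first cell outside it, D05, at 0.883. Over the 7 cells the ratio was 0.652 ± 0.129 (SD, 7 cells), and it ran from 0.428 in E01 upwards. The labels name no molecular identifiers, so intervals cover counting error only.

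The low share was not carried by a few abundant genes. Without the 10 chromosome 14 genes with the most counts the ratio lay between 0.420 and 0.817 in the 7 cells. Within each of the 7 cells, 58.6% to 84.8% of the 256 chromosome 14 genes with a median above 0 in the other cells lay below that median, against 50.2% to 61.3% of genes on other chromosomes. E01 had the highest of these chromosome 14 percentages and F07 the lowest. In the other 54 cells the same percentage reached 66.4%, in B10, and the next highest was 60.5%, in F06. B10 had the fewest genes detected of all cells (5317). In B10, 66.2% of genes on other chromosomes also lay below the median. B09 (64.1%) lay below B10 but above the remaining other cells, with 51.96% of its genes on other chromosomes below the median. F07 (58.6%) lay below both B10 and F06, so by this measure it was not apart from the other cells. E01, H10, B05, H03 and F01 lay above all 54 other cells.

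The other chromosomes stayed closer to the rest. The 133 ratios of the 7 cells, 1 for each cell and each other chromosome, all lay between 0.778 (chromosome X in E01) and 1.22 (chromosome 13 in F01). Some of these ratios were outside the range of the 54 other cells. In F01 this held among others for chromosome 13 (highest other cell 1.13), chromosome 4 at 1.15 (highest 1.10) and chromosome 15 at 0.830 (lowest 0.898). Chromosome 10 was also below 1 in all 7 cells, at 0.867 to 0.995. Chromosome X was below 1 in 6 of the 7, with a mean of 0.896. Among the other 54 cells, 6 ratios lay more than 0.25 from 1: chromosome 2 at 0.688 in C09, chromosome 19 at 0.587 in B03, chromosome 11 at 1.48 in D05, chromosome 1 at 1.27 in D09, chromosome 5 at 1.27 in F05 and chromosome X at 1.32 in A02. Each of these 6 was seen in a different cell. By the same measure chromosome 14 lay more than 0.25 from 1 in 5 of the 7 cells and stood at 0.788 in both B09 and F07.

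**Figure D1:**
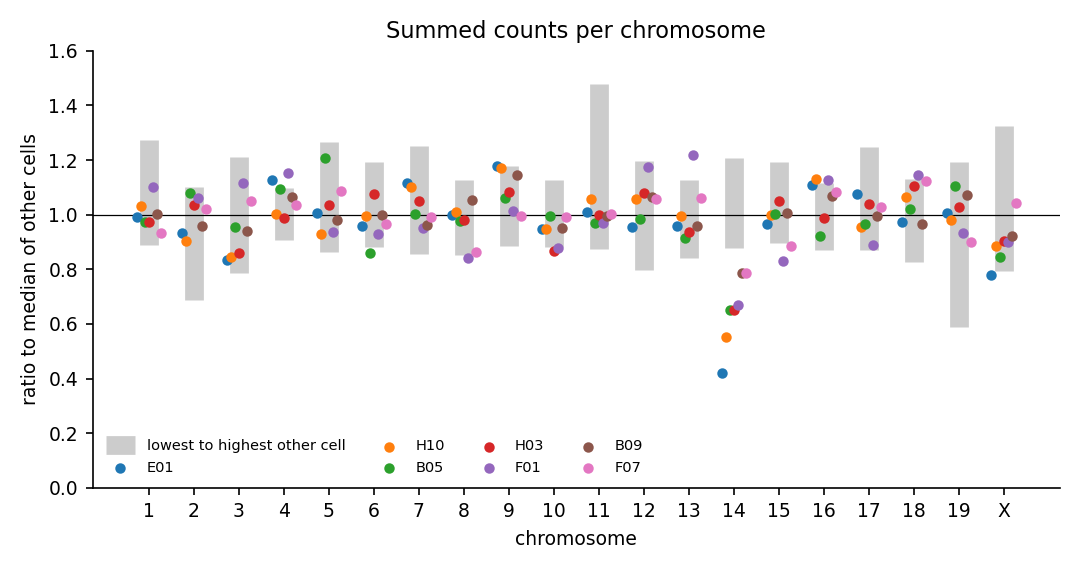
Summed counts of each chromosome (x axis) as a ratio to the median of the 54 other cells (y axis, linear from 0), with counts outside chromosome 14 as the denominator. Coloured points are the 7 cells and grey bars run from the lowest to the highest other cell. On chromosome 14 all 7 points lie below the bar, as the selection requires. On the other chromosomes they lie between 0.778 and 1.22, some of them outside the bar.

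The 7 libraries differed from the rest in other measures too. Total counts overlapped, at 2892439 to 5946344 in the 7 cells and 2417702 to 6787261 in the others. Genes detected numbered 6430 to 8294 (median 7050) against 5317 to 10032 (median 8470). After each cell was thinned to 2417702 counts, chromosome 14 genes detected had a median of 201 against 305, and genes elsewhere a median of 6629 against 7865. Mitochondrial transcripts took 2.34% to 4.45% of counts (median 2.71%) against 0.0543% to 3.09% (median 1.85%). The part of detection and of the mitochondrial share in the results below was not tested. Pairwise Pearson correlations over kept genes were 0.465 to 0.538 among the 7 cells and 0.312 to 0.579 over all pairs, so no library looked deposited more than once.

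The 7 cells also lay on the naive side of the culture. For a naive score, log2(CPM + 1) of 11 naive pluripotency genes outside chromosome 14 was standardised per gene, averaged in each cell and scaled to an SD of 1. CPM stands for counts per 1000000 counts outside chromosome 14, mitochondrial DNA and spike-ins. The score was 2.46 in H10, 2.30 in B05, 2.23 in H03, 1.77 in E01, 1.29 in B09, 1.13 in F07 and 0.695 in F01. The other cells ran from −1.29 to 2.57 with a median of −0.407, and 5 of them scored at or above the lowest of the 7. To set the 7 beside cells nearer in score, the 3 other cells nearest to each of them were taken. This gave 7 distinct cells with scores of 0.256 to 2.57. Their chromosome 14 ratios were 0.883 to 1.10 (median 0.972), and those of the remaining 47 cells started at 0.908 (median 1.01). C02, C05 and B10, with scores of 2.14, 1.74 and 1.18, had ratios of 0.955, 0.972 and 1.10. D05 and C07, with scores of 2.57 and 2.07, had 0.883 and 0.905, below the lowest of the remaining 47 cells. D06 and F05 had scores of 0.456 and 0.256, below every selected cell, and ratios of 0.987 and 0.997. The part of the naive state in the results below was not tested beyond the comparisons with the 7 cells nearest in score.

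**Figure D2:**
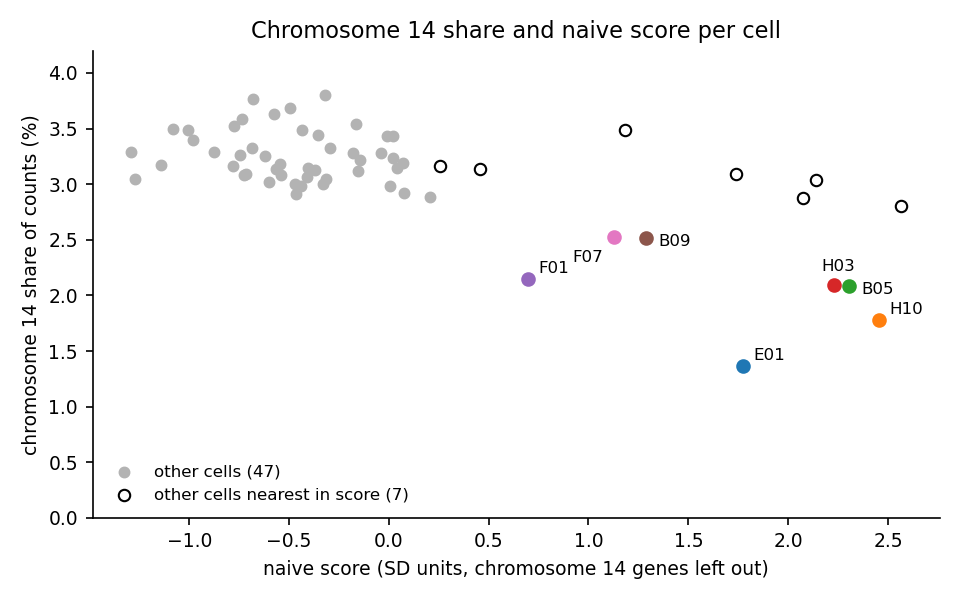
Share of chromosome 14 in the counts (y axis, percent, from 0) against the naive score (x axis, SD units) for 61 cells. Labelled points are the 7 cells, open circles the 7 other cells nearest in score and grey points the remaining 47; the open circles stay at or above 2.81% across scores of 0.256 to 2.57.

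The embryonic stem cell label was checked against markers. Pou5f1, the core pluripotency factor, was counted in all 7 cells at 609.8 to 1551 CPM, within the 78.5 to 3177 CPM of the others. Dppa5a, an abundant pluripotency transcript with near-identical copies, stood at 4262 to 9767 CPM in the 7 cells and 0 to 11687 CPM in the others. All 8 embryonic stem cell markers passed the filter on low values. By a limit of 1.5-fold on means, 4 were higher in the 7 cells, 1 was lower and 3 lay between. Of all genes that passed the filter, 18.7% were higher and 37.4% lower by this limit. The lower marker was Tdgf1, with a mean of 442.7 CPM in the 7 cells and 749.7 in the others. Lin28a, between the limits, had 238.3 and 335.0 CPM. Of markers of other cell types, 2 of 10 primitive endoderm, 4 of 8 trophectoderm, 1 of 8 neurectoderm, 3 of 10 fibroblast and 0 of 8 genes of 2-cell-like cells passed the filter on low values. Their summed CPM in the 7 cells ran from 0 to 24.1 for primitive endoderm, 0 to 354.3 for trophectoderm and 13.7 to 482.0 for fibroblast genes, and was 0 for the neurectoderm gene Nes. In the others the sums reached 207.4, 613.2, 5309 and 615.6 CPM. Gata4, Gata6, Sox17, Sox7, Pdgfra, Cdx2, Eomes, Sox1, Nes, Col1a1, Col1a2, Col3a1, Thy1 and Dcn were at 0 in all 7 cells. Of these, Gata4 and Pdgfra were counted in only 2 other cells each, Sox17 in 1 and Sox1 in 0. The trophectoderm marker Tfap2c was counted in H10, H03 and B09 and was called higher. Its mean was 95.8 CPM in the 7 cells and 14.2 in the others. The other kept trophectoderm markers, Cdx2, Eomes and Gata3, were called lower. Dab2 was counted in B05 and H03, and Lama1 in E01 at 48.3 CPM. Pax6, a neurectoderm gene under the filter, was counted in 4 of the 7 cells, with 36.1 CPM in B05 and 40.6 in H03. It was counted in 12 of the others, and its means were 11.9 CPM in the 7 cells and 2.03 in the others. Fn1 was counted in all 7 and Vim in 5. The part of these genes in the results was not tested.

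Genes on chromosome 14 were then compared 1 by 1. A gene was kept when its mean over 61 cells was at least 10 CPM, and its ratio was the mean of the 7 cells plus 1 over the mean of the 54 cells plus 1. It was called lower at a ratio of 1/1.5 or less and higher at 1.5 or more. Of 1556 chromosome 14 identifiers, 810 were counted in at least 1 cell and 313 passed the filter. Lower calls took 196 of the 313 (62.6%), with 37.4% of all 8886 kept genes called lower. Higher calls took 28 (8.95%), with 18.7% of all kept genes. Since chromosome 14 counts chose the cells, these shares describe the selection and carry no further weight. The median log2 ratio was −0.96 for chromosome 14 genes, a ratio of 0.513, and −0.17 for the 8573 genes elsewhere.

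The gap was present at every level of abundance. Among genes with a mean over 100 CPM, the median log2 ratio was −0.80 for 96 chromosome 14 genes and −0.03 for 2334 genes elsewhere. Lower calls there took 61.5% and 22.7%. The medians were −1.02 and −0.17 at 30 to 100 CPM, and −1.29 and −0.48 at 10 to 30 CPM. Of the 256 chromosome 14 genes with a median above 0 in the other cells, 40 were below that median in all 7 cells (15.6%), where the rate over all such genes was 6.61%. No count at all in the 7 cells was found for 21 of the 313 genes (6.71%), near the 5.09% of all kept genes. Against the 7 other cells nearest in naive score, 164 of the 313 were called lower (52.4%) with 32.4% of all kept genes, and 50 were called higher with 24% of all.

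**Figure D3:**
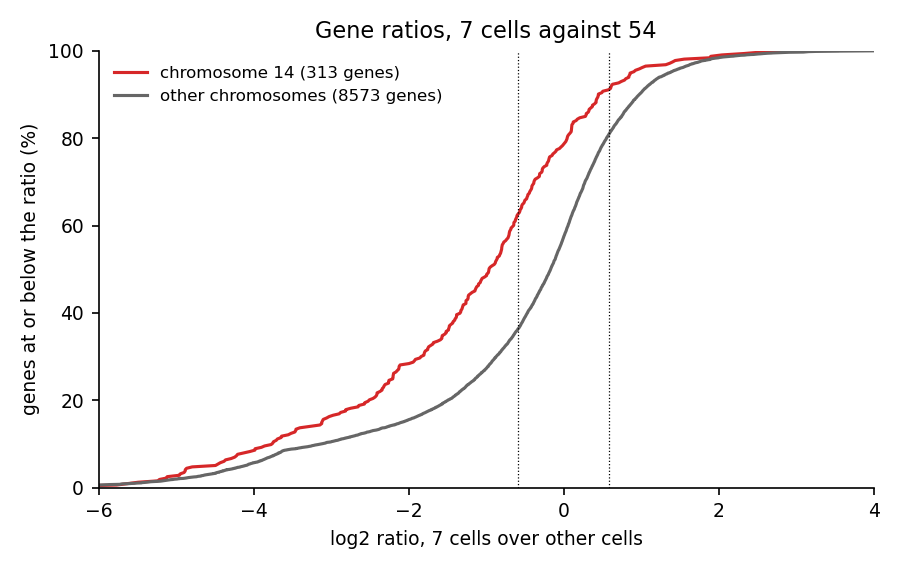
Cumulative share of genes (y axis, percent) at or below a log2 ratio of the 7 cells over the other 54 (x axis), for 313 chromosome 14 genes and 8573 genes of other chromosomes. Dotted lines mark the 1.5-fold limits; the chromosome 14 curve lies to the left, with medians of −0.96 and −0.17.

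The reduction was uneven along the chromosome. Kept genes were taken in order of position in 13 blocks of 25 genes, the last with 13, and the summed CPM of each block was set against the median of the other cells. In E01 all 12 full blocks lay between 0.221 and 0.692. In the other 6 cells the blocks ran from 0.0632 (block 13 in F01) to 1.74 (block 12 in F07). Over the 7 cells, 61 of 84 full chromosome 14 blocks were below 0.75 (72.6%), against 17.9% of 2338 blocks on other chromosomes in these cells and 13.1% of 648 chromosome 14 blocks in the other cells.

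The span shared by all 7 cells was blocks 5 to 11, with 175 kept genes between bases 46084028 and 79635196 of chromosome 14 (GRCm38). Its limits were set after the block values were seen, and its genes are part of the sum that chose the cells, so its values are a description of the selection. Its summed CPM stood at 0.385 of the other cells' median in H10, 0.478 in E01, 0.497 in F07, 0.502 in H03, 0.506 in F01, 0.518 in B05 and 0.653 in B09. The other 54 cells ran from 0.861 to 1.23 and the 7 nearest in naive score from 0.930 to 1.16. The mean over the 7 cells was 0.506 ± 0.0786 (SD, 7 cells). B09 and F07, whose whole-chromosome ratios were the mildest, were at 0.653 and 0.497 in this span. Lower calls took 126 of its 175 genes (72%), beside 62.6% of chromosome 14 genes and 37.4% of all kept genes. Higher calls took 11, and the median log2 ratio was −1.41.

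Outside this span the cells differed from each other. In blocks 1 to 4, with 100 genes from base 7006115 to base 45530118, E01 was at 0.287, H10 at 0.670, B05 at 0.678, H03 at 0.741, F01 at 0.822, B09 at 0.859 and F07 at 0.968. The other cells ran from 0.712 to 1.21 there, so 4 of the 7 lay inside their range. In blocks 12 and 13, with 38 genes from base 86655367 to base 122984035, E01 was at 0.440 and the other 6 between 0.841 and 1.41, where the others ran from 0.412 to 1.39. E01 was thus low in every full block, and the other 6 were lowest in the middle of the chromosome.

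**Figure D4:**
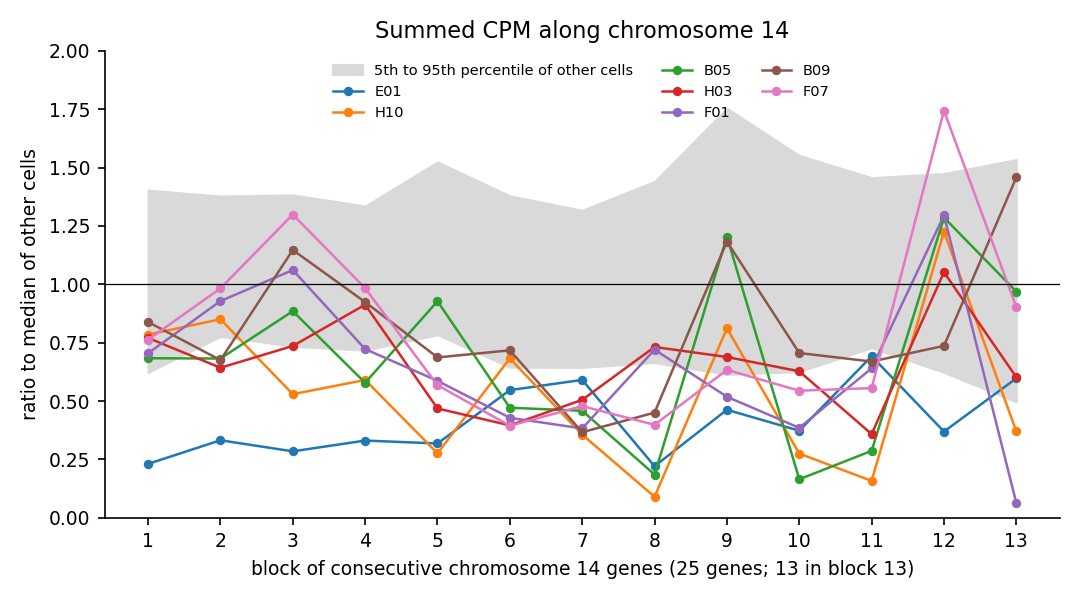
Summed CPM of consecutive blocks of chromosome 14 genes (x axis, block order) as a ratio to the median of the 54 other cells (y axis, from 0). Lines are the 7 cells and the grey band spans the 5th to the 95th percentile of the other cells; E01 runs between 0.221 and 0.692 in blocks 1 to 12, and in block 7 all 7 lines lie below the band.

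Single blocks inside the span varied more than their sum. Block 7, from base 54614119 to base 56697430, was the block where all 7 cells lay below all 54 others, at 0.356 to 0.591 against 0.627 to 1.52. Block 9, from base 61365211 to base 66311424, was at 1.204 in B05, 1.18 in B09 and 0.463 to 0.812 in the other 5. Block 9 holds Tdh, which encodes the threonine dehydrogenase of embryonic stem cells and was higher, not lower, in the 7 cells. Runs of 7 consecutive full blocks were also summed along every chromosome. All 6 such runs on chromosome 14, which overlap each other, had the 7 cells below the 54 others, with means of 0.506 to 0.646. Each of these runs sums 175 of the 313 genes behind the choice of the cells, so this separation follows from the selection. None of 220 runs elsewhere had it, and their means ran from 0.834 on chromosome X to 1.41 on chromosome 9. In a cell outside the selection, C09, runs on chromosome 2 went down to 0.479.

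The lists of chromosome 14 genes by role are read beside the 62.6% of the chromosome's kept genes, and 37.4% of all kept genes, called lower. Their own shares ran from 36.4% for ubiquitin and proteasome genes to 76.9% for cytoskeleton genes.

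Psmb5 and Nedd8, of the ubiquitin and proteasome system, were counted in every cell and were called lower. Psmb5, a catalytic subunit of the proteasome (bases 54614119 to 54618022, minus strand), stood at 48.4 CPM in F01, 50.8 in B09, 57.7 in H10, 74.7 in E01, 107 in H03, 124 in B05 and 167 in F07. The other cells ran from 75.97 to 460.5 CPM with a median of 208, and the log2 ratio was −1.26. All 7 cells were below that median, and 4 were below every other cell. Nedd8, a ubiquitin-like protein that activates cullin ligases, was at 63.9 to 309.2 CPM in the 7 cells and 148 to 569 CPM in the others, a log2 ratio of −1.23. Psmb5 was set down for the list of proteasome genes outside chromosome 14 but was not counted there, because it lies on chromosome 14. Nedd8 is in no list used here. Both were named after their values were seen, as were Psme1, Prmt5, Tpt1, Esd and Tdh below.

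The neighbouring genes Psme1 and Psme2, which encode the activator PA28 of the proteasome, were among the most reduced. Psme1 (bases 55578123 to 55581529, plus strand) was at 0 in H10, B05 and F07, 0.176 CPM in H03, 1.247 in F01, 10.5 in B09 and 70.1 in E01. The other 54 cells were all above 0, with a median of 109 CPM, and the log2 ratio was −3.47. Psme2 was at 0 in E01, B05 and B09 and at 25.2 to 193 CPM in the other 4, with a median of 394 CPM in the others. Its log2 ratio was −3.12, or −4.12 without H03, and no cell of the 7 reached the others' median.

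The list of ubiquitin and proteasome genes was mixed. Psmc6, an ATPase of the proteasome base, had a log2 ratio of −0.81. Uchl3, a deubiquitinase, had 0.58, with 0 CPM in E01 and 1347 CPM in F01. Of the 11 kept ubiquitin and proteasome genes on chromosome 14, 4 were called lower and 2 higher, and the median log2 ratio was 0.07. This was the list of chromosome 14 genes with the highest median.

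Chromatin, transcription and repair genes made up the longest list. Of 21 kept members, 14 were called lower (66.7%) and 2 higher, near the share of the whole chromosome, with a median log2 ratio of −0.99. Supt16, a subunit of the histone chaperone FACT, was at 53.8 CPM in H03, 58.3 in F07, 176 in H10, 319 in F01, 436 in B05, 595 in E01 and 607 in B09. The others ran from 27.2 to 2157 CPM with a median of 567.5, and the log2 ratio was −0.99. Prmt5, an arginine methyltransferase, was at 0 in F07 and at up to 393 CPM in E01, where the others had a median of 290 CPM; its log2 ratio was −0.97. Hnrnpc, an abundant RNA-binding protein, was at 288 to 950.6 CPM against 115 to 1136 CPM, with a log2 ratio of −0.42 that did not reach the limit. Pbrm1, a subunit of a chromatin remodeller whose gene overlaps Gnl3, had −0.44, and 0.40 against the cells nearest in naive score.

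Genes of RNA processing, translation and nuclear transport were lower in 7 of 14 kept members and higher in none, with a median log2 ratio of −0.63. Tpt1, a translationally controlled transcript with many processed copies, was at 16.2 CPM in H03, 20.7 in H10, 33.4 in B05, 33.7 in E01, 37.9 in F07, 49.1 in B09 and 49.9 in F01. The others ran from 45.99 to 170 CPM, and 5 of the 7 cells lay below all of them. Its log2 ratio was −1.48. By contrast Rps24, a small-subunit ribosomal protein, had a log2 ratio of 0.04, with 454 to 1047 CPM against 381 to 1281 CPM. Rpl15, of the large subunit, had 0.03. Against the cells nearest in naive score they had −0.10 and −0.47. Both ribosomal genes have processed copies elsewhere, so their counts are uncertain.

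Mitochondrial and metabolic genes were lower in 12 of 16 kept members and higher in none, with a median log2 ratio of −0.91. Esd, an esterase that acts on S-formylglutathione (bases 74732297 to 74750765, plus strand), was at 0 in H10, B05 and B09, 0.416 CPM in F01, 12.9 in E01, 44.5 in F07 and 109 in H03. The other 54 cells were all above 0, with a median of 328 CPM, and the log2 ratio was −3.69. All 7 cells were below that median. Vdac2, an outer-membrane channel, had −0.86, and Tkt, the transketolase, −0.59. Ghitm, an inner-membrane protein encoded outside the middle span, had 0.01, with 21.8 CPM in E01 and 431 to 1105 CPM in the other 6.

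The cell cycle list had 9 lower and 1 higher of 14 kept genes and a median log2 ratio of −1.15. Dnajc9, a histone chaperone, had −0.68, or −1.74 without F01. Dlgap5, a spindle protein, had −0.46, or −1.13 without B05, and Cdca2 had 0.04, and −0.07 against the cells nearest in naive score. The secretory list had 10 lower and 1 higher of 17, with a median of −1.43. In it Ktn1, the kinesin receptor kinectin, was at 0 CPM in H10, 0.208 in F01, 18.2 in F07, 105 in E01, 142 in B09, 388 in H03 and 692 in B05, where the others had a median of 595 CPM. Against the cells nearest in naive score Ktn1 had −0.20 in place of −1.84, and without B05 it had −2.65. Tm9sf2 had −1.76 and Arf4, a small GTPase of the Golgi, −0.48, which turned to 0.15 against the nearest cells.

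Cytoskeleton and adhesion genes had 10 lower and 1 higher of 13 kept members and a median log2 ratio of −1.31. Vcl, the focal adhesion protein vinculin, was at 0 in B05, F01 and B09, 28.2 CPM in F07, 79.7 in E01, 120 in H03 and 190 in H10. All 7 were under the others' median of 205 CPM, and the log2 ratio was −2.20, or −2.84 without H10. Gmfb, a regulator of actin branching, had −0.14. Lgals3, a galectin, was counted in 3 of 7 and 24 of 54 cells and had −1.74, or −2.57 without B05.

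Developmental and pluripotency regulators on chromosome 14 were lower in 7 of 12 kept members and higher in none, with a median log2 ratio of −0.93. Tsc22d1, a regulator of growth-factor signalling, was at 0 in E01, H10 and F01, 0.352 CPM in H03, 0.682 in B05, 41.9 in F07 and 58.7 in B09. The others had a median of 138 CPM, and the log2 ratio was −3.86, or −4.79 without B09. Ajuba, a LIM-domain scaffold, had −2.64, or −6.23 without B09, with 227 CPM in B09 and at most 8.17 CPM in the other 6.

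Klf5, a Kruppel-like factor of the naive network, was at 0.957 CPM in E01, 22.5 in H03, 39.2 in B09, 64.8 in B05, 72.1 in F01, 130 in F07 and 239 in H10, and the others had a median of 46.5 CPM. Its log2 ratio was 0.29, which passed neither limit, and −0.22 against the cells nearest in naive score. Otx2, a factor of the formative state, was counted in 2 of 7 and 20 of 54 cells, with a log2 ratio of −0.20, or −1.99 without H03. Against the nearest cells, whose mean was 0.356 CPM, the log2 ratio of Otx2 was 4.30. Sall2 had no count in the 7 cells and was counted in 18 of 54; with 3 counts in each library as the floor, averaged over the 7, it was at least 17.2-fold lower. Rnf17, a germline tudor-domain gene, had −0.53, and Spry2, an inhibitor of growth-factor signalling, 0.28, which turned to −0.33 against the nearest cells.

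**Figure D5:**
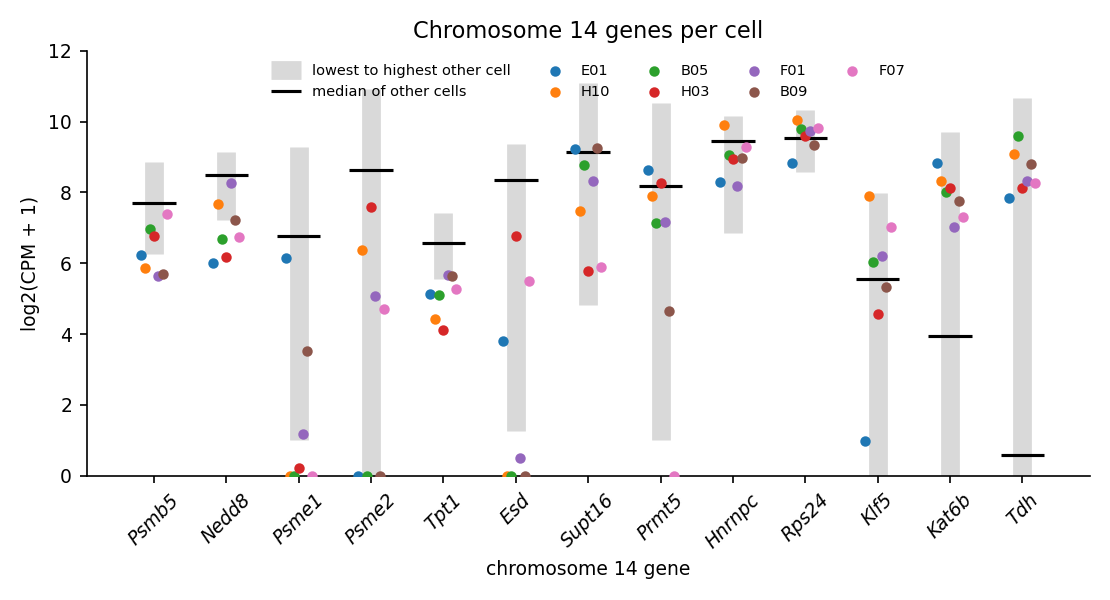
Level of 13 chromosome 14 genes as log2(CPM + 1) (y axis). Coloured points are the 7 cells, grey bars run from the lowest to the highest of the 54 other cells and black lines mark their median; for Psmb5, Psme1, Psme2, Tpt1 and Esd all 7 points lie below the line, and for Kat6b and Tdh all 7 lie above it.

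Among the 28 chromosome 14 genes called higher, Kat6b, a histone acetyltransferase, and Tdh stood out by their evenness. Kat6b was at 129 to 457 CPM in the 7 cells, each above the others' median of 14.3 CPM, and had a log2 ratio of 2.04. Tdh was at 229 to 775 CPM, with a median of 0.495 CPM in the others and a log2 ratio of 1.55. Against the other cells nearest in naive score the log2 ratios were −0.28 for Kat6b and −0.24 for Tdh. Kcnk5 (3.0), Ephx2 (2.54), Rnf31 (2.32) and Ercc6 (1.90) also had high log2 ratios, but the first 3 were counted in only 2 or 3 of the 7 cells. Kcnk5 had 1.91 without H10, Ephx2 1.65 without B05 and 1.89 without B09, Ercc6 0.99 without H03 and Rnf31 −0.45 without B05. In the middle span, 24 of 175 genes had a ratio above 1.

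Genes on chromosome 14 were also set beside genes of other chromosomes from the same complex or family, called partners here. The chromosome 14 genes are part of the sum that chose the cells. A ratio below those of the partners therefore follows from the selection and carries no further weight. Psmc6 had a log2 ratio of −0.81, and its ATPase partners Psmc1 to Psmc5 ran from −0.37 to 0.27. Supt16 had −0.99 and its FACT partner Ssrp1 −0.06. Prmt5 had −0.97, with −0.24 and 0.27 for its cofactors Wdr77 and Clns1a. Bap1, a deubiquitinase of histones, had −1.15, below all 3 of its partners. Haus4, of the augmin complex, had −1.52, below all 7 of its partners, and Sucla2, of succinyl-CoA ligase, had −2.81 against −0.03 for Suclg1. Exoc5 was also below each of its partners, and Vdac2 below the related channels Vdac1 and Vdac3. The pattern was not general: Timm23 (0.50), Rpl15 (0.03), Pbrm1 and Spcs1 were above most of theirs, and Wapl and Med4 lay among theirs. Klf5, at 0.29, was below Klf2 and Klf4, which belong to the same family of factors.

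Away from chromosome 14, 3127 of 8573 genes were called lower (36.5%) and 1634 higher (19.1%). Naive pluripotency genes were high in the 7 cells: 10 of 11 were called higher and none lower, with a median log2 ratio of 2.74. Klf2, a naive factor, was at 0.742 CPM in F07 and 72.3 to 254 CPM in the other 6, with a median of 0 in the others and a log2 ratio of 3.95. Zfp42 was at 71.5 CPM in F01 and 518 to 1868 CPM in the other 6, against a median of 1.79 CPM, a log2 ratio of 2.79. Fbxo15 (3.10), Hsf2bp (3.70), the germline gene Tdrd12 (3.51), Rpl39l (3.25), Hsd17b14 (3.15) and Mylpf (2.56) were higher in at least 90% of pairs of 1 of the 7 and 1 other cell. Only 0.442% of genes with a mean of 20 CPM or more passed that limit. General pluripotency genes had 9 higher and 1 lower of 16, with Dppa5a at 1.75 and Fgf4 at 1.85, or 0.03 without B05. Hsd17b14 had 2.55 without B05.

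Beside the cells nearest in naive score, which were chosen by these same naive genes, most of these differences were smaller. Against the 7 nearest cells the log2 ratio of Zfp42 was −0.01, that of Fbxo15 0.58, that of Mylpf −0.10 and that of Dppa5a 0.43, while Klf2 kept 1.33 and Hsf2bp 1.79. In the same comparison, where 32.4% of all kept genes were lower, the median log2 ratio of all chromosome 14 genes was −0.68 in place of −0.96. It was −0.25 in blocks 1 to 4 (39% lower), −1.13 in blocks 5 to 11 (61.7% lower) and −0.25 in blocks 12 and 13 (44.7% lower).

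Formative and mesendoderm genes were low beside the 54 other cells. Of 12 kept formative and primed genes outside chromosome 14, 10 were called lower and none higher, beside 36.5% of genes off chromosome 14 called lower. All 7 kept mesendoderm genes were lower, with a median of −4.82. For T, Mixl1, Eomes, Cdx2, Fgf8 and Sp5, with means of at most 0.212 CPM in the 7 cells, that call was fixed in advance. They passed the filter only through the other cells, as did Lefty1 and Krt18. The highest other cell had 3022 CPM of Mixl1, whose median in the others was 0. Lefty1, a Nodal inhibitor, was at no more than 2.23 CPM in the 7 cells, with a median of 83.5 CPM in the others and a log2 ratio of −8.39. Krt18, a keratin of simple epithelia, was at 0 in 6 of the 7 cells, with a median of 109 CPM in the others. T was at 0 in 6 of the 7 and counted in 39 of 54 others. Against the cells nearest in naive score the log2 ratios were −8.54 for Lefty1, −5.03 for Krt18 and −5.21 for T. In that comparison, where 32.4% of all kept genes were lower, all 7 mesendoderm genes were lower. Of the 12 formative genes, 6 were lower and 2 higher, with a median of −0.41. Cdh2 (2.37), Pim2 (0.81), Sox4 (0.47) and Fgf5 (0.10), called lower against the 54 cells, were above 0 there, and Cdx2 had −0.74 in place of −4.82.

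Some genes were absent from all 7 cells but common in the rest. Such genes passed the filter only through the other cells, and 5.09% of all kept genes had no count in the 7. Fndc3c1, on chromosome X, was counted in 46 of 54 others and was at least 222-fold lower, by the same floor. The histocompatibility gene H2-K1 was counted in 44 and was at least 150.2-fold lower. The intermediate filament gene Nes was counted in 47 and was at least 98.3-fold lower. Itm2c and Lpgat1 were at least 83.8-fold and 79.4-fold lower. The cells nearest in naive score held less of these genes, with means of 21.3 CPM for Fndc3c1 in place of 180 over all others, 7.63 in place of 79.8 for Nes and 14.5 in place of 64.5 for Lpgat1. The bounds against them would be smaller. Perp, a p53 target, was counted in H03 alone, and Dlst and Rcn2 had log2 ratios of −5.89 and −5.77, or −6.69 without F07 and −7.70 without E01. On the same measure, being lower in at least 90% of pairs, 6 of the 256 chromosome 14 genes with a mean of 20 CPM or more passed, where 0.485% of all such genes did: Psmb5, Psme1, Nedd8, Tnfrsf10b, Esd and Tpt1.

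Most lists that bear on the state of the cells had calls in both directions or few calls. They are read beside the 36.5% of kept genes off chromosome 14 called lower and the 19.1% called higher. Of 19 kept p53 pathway genes, 7 were called lower (36.8%, beside 36.5% of all genes off chromosome 14) and 1 higher, and Btg2, an antiproliferative p53 target, had −2.50, or −3.35 without E01. Genes of the ER stress and ATF4 response had 7 lower and 3 higher of 13. Among them Atf3 was absent from the 7 cells. Cytosolic chaperones had 2 higher of 17, Hspb1 at 1.02 and Hsp90aa1 at 0.87, and none lower. Proteasome genes outside chromosome 14 had a median of 0.17, with Psmd4 at 0.86 and Psmd3 at 0.65 as the higher 2 of 30. Of 46 ribosomal protein genes, Rpl27 and Rpl12 were lower and the median was 0.01. S-phase genes had 2 lower and 5 higher of 21, as did genes of G2 and M phase. Mitochondrially encoded genes differed from these lists: all 7 kept members were higher, with a median of 0.83, and mt-Cytb was at 1829 to 7027 CPM against 39.5 to 3914 CPM.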

How the data were processed

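The deposited raw table holds whole-number counts per gene for 36300 rows, of which 95 are spike-ins. The authors used GSNAP, SAMtools 0.1.18, bedtools 2.19.1 and DESeq2 with GRCm38, per the submitters' processing notes. How reads were assigned, the annotation release and strandedness are not stated in these sources, so overlapping and duplicated genes are uncertain. The deposited normalized table was not used here. Positions are from GENCODE M21 on GRCm38, which matched 34966 of 36205 identifiers, and unmatched identifiers took 0.421% of counts. Ratios, filters and blocks are as defined in the text and were computed in Python 3.11.15. TMM library sizes (edgeR 4.0.16) and DESeq2 1.42.0 size factors served as alternatives only. The procedure was tested on simulated data. The cells and gene lists were chosen with earlier results of these data known. Named genes were the 12 chromosome 14 genes with the highest mean, the top 3 of each chromosome 14 list, Klf5, Otx2, Sall2, Lgals3 and Rnf17, the 5 highest ratios there, the 8 largest and 8 smallest ratios elsewhere among genes with a mean of at least 20 CPM that were higher in at least 90% or at most 10% of pairs of cells, and 2 of each other list. Genes named outside this rule are marked in the text, and 1 gene the rule named is not reported here. Depth per cell was 2417702 to 6787261 counts.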

Additional observations from a re-analysis of the deposited data

Results flagged for a closer look

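Across 120 measures compared over the 7 cells, 18 had 1 cell far from the other 6 by Dixon's criterion. Its rate of about 1 in 20 holds for normally distributed values. Many of these measures were CPM of genes with zeros, so the 18 cannot be read against that rate. Where 6 cells are at 0, any count in the remaining cell is marked. For position, E01 was at 0.231 in block 1 of chromosome 14, with the next cell at 0.684. For chromosome 14 genes, the cell apart was B09 for Ajuba (227 CPM) and Ipo5 (1096 CPM), H03 for Psme2 (193 CPM), Otx2 (140 CPM) and Ercc6 (196 CPM), F01 for Dnajc9 (601 CPM) and B05 for Rnf31 (323 CPM). Elsewhere it was B05 for Fgf4 (567 CPM) and F01 for Rpl39l (732 CPM). In the genes near 0 in the 7 cells, it was F07 for Lefty1 (2.23 CPM), Fgf8 (1.48 CPM) and Dlst (6.31 CPM), B09 for Krt18 (1.16 CPM) and Herpud1 (6.10 CPM), F01 for T (0.416 CPM), H03 for Perp (2.81 CPM) and E01 for Rcn2 (28.5 CPM).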

How the results depend on the processing

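The ratio of the chromosome 14 share (chr14 share ratio, 0.652) stayed between 0.596 and 0.671 under the alternatives with all 7 cells or without B09 and F07, and between 0.629 and 0.690 without 1 cell. The ratio of blocks 5 to 11 (segment ratio, 0.506) stayed between 0.478 and 0.539; its alternatives, and those without B09 and F07, were chosen after seeing the data. The median log2 ratio of chromosome 14 genes (−0.96) lay between −1.23 without B09 and F07 and −0.68 against the cells nearest in naive score. DESeq2 size factors moved the median of the other genes from −0.17 to −0.06, and TMM to −0.24. With a minimum mean of 1 CPM, 309 chromosome 14 genes were lower and 5990 and 2548 other genes were lower and higher; with 50 CPM these were 94, 1135 and 653, because fewer or more genes were tested. At a 2-fold limit 821 other genes were higher in place of 1634. Among named genes past the 1.5-fold limit, the log2 ratio reversed against the cells nearest in naive score for Fgf4 (−0.33), Herpud1 (0.90), Kat6b (−0.28), Zfp42 (−0.0091) and Mylpf (−0.10); with medians over cells it reversed for Cdc45 (−2.12), and without B05 for Rnf31, whose values without 1 cell ran from −0.45 to 2.54. The cause was not tested. No paired analysis was possible because the labels give the cells no shared replicate numbers. A median of 201 chromosome 14 genes detected at equal depth limits values of single low genes.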
